A study of Mus musculus with 3 samples.

Results

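Dazl, Ddx4, Mael, Piwil2, Asz1, Sycp1, Sycp3, Taf7l, Tex101 and Slc25a31 are genes of the germline that are known as sensitive to DNA methylation. The 10 genes were chosen by name, and every probe whose accession maps to one of these symbols was taken, which gave 10 genes of the 20660 named genes on the array and 10 probes of 27235 named probes. Each gene was represented by 1 probe with 1 spot per array. The arrays measured RNA and not methylation, so the name of the group describes what is known of these genes and was not checked here.

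The samples were total RNA of J1 cells, a line of mouse embryonic stem cells (mESCs) of strain 129S4/SvJae, which the labels trace to the inner cell mass. The cells grew on gelatin with LIF at 1000 U/mL and serum replacement, and all 3 replicates received 1 µM PD0325901 (PD), an inhibitor of the kinase MEK, for 24 h. Each replicate was labelled with Cy3 and hybridised to its own Agilent array, and the 3 arrays lay on 1 slide and in 1 scan. Control cells without PD were not analysed here, so no effect of PD on these genes was measured, and the values below describe PD-treated cells.

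Germline genes of this kind are active in germ cells and silent in most somatic tissues. Many of them have promoters rich in CpG dinucleotides, which DNA methyltransferases methylate around implantation, and embryos or cells that lack DNA methylation are known to express them. In mESCs a complex of the factors Pcgf6, Mga, Max, L3mbtl2 and E2f6 is also known to repress such genes. Mga and Max bind the E-box, CACGTG, and E2f6 binds sites that hold TCCCGC.

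The promoters of the germline genes were read from RefSeq (GRCm38.p6) as 300 bases each, of which 250 lie before the start site and 50 from it onward. The table held 9 of the 10 genes, all but Piwil2, among 32851 promoters in all. The sequences of 4 promoters follow, with every CpG in capitals, because CpG is the dinucleotide that is methylated. They show a CpG-rich promoter without an E-box (Dazl), one with E-box and TCCCGC (Mael), one with the highest ratio of observed to expected CpG (Taf7l), and that of the dimmest gene on the arrays (Asz1). Dazl lies at chr17:50293571-50293870 on the minus strand, Mael at chr1:166238695-166238994 on the minus strand, Taf7l at chrX:134476441-134476740 on the minus strand and Asz1 at chr6:18109012-18109311 on the minus strand.
Dazl: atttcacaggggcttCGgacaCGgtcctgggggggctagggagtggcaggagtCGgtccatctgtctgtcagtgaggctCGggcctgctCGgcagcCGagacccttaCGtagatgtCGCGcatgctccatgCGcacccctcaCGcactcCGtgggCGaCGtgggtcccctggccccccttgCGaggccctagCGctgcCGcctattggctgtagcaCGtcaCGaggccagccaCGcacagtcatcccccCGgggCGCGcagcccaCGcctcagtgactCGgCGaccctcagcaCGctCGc
Mael: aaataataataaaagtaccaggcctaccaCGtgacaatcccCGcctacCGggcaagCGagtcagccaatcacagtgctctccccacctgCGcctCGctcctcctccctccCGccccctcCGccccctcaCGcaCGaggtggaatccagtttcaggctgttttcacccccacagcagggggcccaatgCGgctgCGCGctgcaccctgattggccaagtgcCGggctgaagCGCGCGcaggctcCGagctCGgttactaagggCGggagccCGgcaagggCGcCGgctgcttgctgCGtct
Taf7l: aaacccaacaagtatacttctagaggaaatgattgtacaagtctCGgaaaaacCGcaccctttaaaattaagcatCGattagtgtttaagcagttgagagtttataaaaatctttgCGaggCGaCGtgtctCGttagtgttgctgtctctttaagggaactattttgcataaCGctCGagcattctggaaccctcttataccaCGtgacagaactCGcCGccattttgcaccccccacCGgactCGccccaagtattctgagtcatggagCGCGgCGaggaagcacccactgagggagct
Asz1: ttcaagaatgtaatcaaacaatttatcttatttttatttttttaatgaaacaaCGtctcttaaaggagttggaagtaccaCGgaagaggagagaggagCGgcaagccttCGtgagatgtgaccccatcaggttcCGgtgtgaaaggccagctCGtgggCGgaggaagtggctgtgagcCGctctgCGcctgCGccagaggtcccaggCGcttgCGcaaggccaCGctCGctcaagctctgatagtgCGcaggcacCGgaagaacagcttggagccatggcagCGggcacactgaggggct

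The germline promoters held 15 to 38 CpG with a median of 21, whereas the median of all promoters was 7. The most were found in Ddx4 with 38 and Dazl with 28, and the fewest in Sycp3 with 15. Mael held 24, Slc25a31 held 22, Sycp1 held 21, Tex101 held 19, and Asz1 and Taf7l held 17 each. The promoter of Sycp3 had more CpG than 65.4% of all promoters, and that of Ddx4 had more than 95%. All promoters together covered 27025 genes, more than the 20660 named genes of the array. The named genes, each taken by its promoter with the most CpG, were divided into 4 groups of similar size by CpG count. The groups ended at 5, 16, 26 and 67 CpG. Sycp3 lay in the second group, Dazl and Ddx4 in the fourth and the other 6 in the third. The median GC content of the germline promoters was 59.7% beside 52.7% in all promoters, and the median ratio of observed to expected CpG was 0.80 beside 0.38. Taf7l, the X-linked gene of the set, had the lowest GC content (47.0%) and the highest ratio (1.03), so its CpG were as frequent as its base composition gives.

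**Figure D1:**
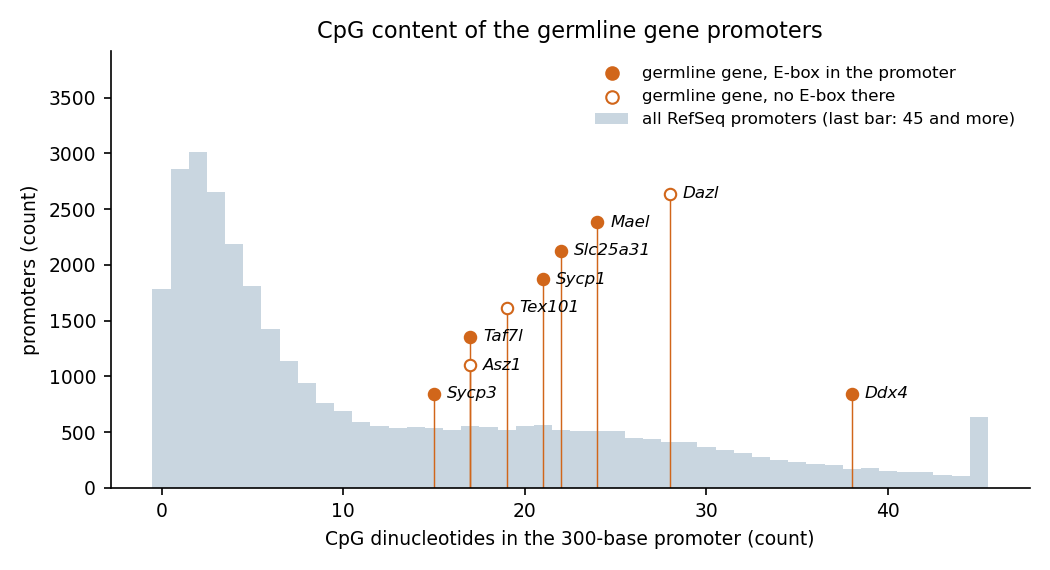
Number of CpG dinucleotides per 300-base RefSeq promoter (x axis, count) against the number of promoters with it (y axis, count), with bars for all promoters and circles for the 9 germline genes, filled where the promoter holds an E-box. The circles lie between 15 and 38 CpG, to the right of the median of 7 of all promoters, and their heights were set only to separate the names.

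The E-box was present in 6 of the 9 germline promoters with 7 matches, and in 7.15% of all promoters. Among the 9917 promoters with 15 to 38 CpG, the range of the germline genes, 11.3% held it. The letters TCCCGC, read on both strands, were present in 5 of the 9 germline promoters (Ddx4, Mael, Sycp1, Sycp3 and Slc25a31), in 20% of all promoters and in 43.1% of those in that CpG range. Both motifs stood in the same 5 promoters, beside 1.99% of all promoters and 4.67% of those in the CpG range, and no match of one motif overlapped a match of the other. Taf7l held the E-box without TCCCGC, and Dazl, Asz1 and Tex101 held neither in this window. A match of letters describes the sequence and does not show that a factor binds there.

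The windows below hold each E-box in capitals with 10 bases on either side, on the strand of the gene, to show where the matches lie and that their flanks differ. The E-box of Ddx4 (chr13:112652324-112652349, minus strand) begins 29 bases before the start site, that of Taf7l (chrX:134476524-134476549, minus strand) 49 bases, that of Slc25a31 (chr3:40708768-40708793, plus strand) 93 bases and that of Sycp1 (chr3:102936179-102936204, minus strand) 94 bases. Sycp3 holds a pair, 64 bases (chr10:88459513-88459538, plus strand) and 43 bases (chr10:88459534-88459559, plus strand) before its start, and that of Mael (chr1:166238952-166238977, minus strand) lies farthest upstream at 223 bases.
Ddx4: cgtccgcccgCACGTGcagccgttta
Mael: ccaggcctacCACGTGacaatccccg
Sycp1: gagaacccggCACGTGggaagggaaa
Sycp3, 64 bases before the start: cgttggctccCACGTGagaacgggca
Sycp3, 43 bases before the start: gggcatggagCACGTGctaggaggcg
Taf7l: cctcttatacCACGTGacagaactcg
Slc25a31: caactggaaaCACGTGttatggtcac

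All 10 germline genes gave a signal in PD-treated cells. Each was flagged well above background on all 3 arrays, which is how a gene was counted as detected, and the same held for 72.7% of all named genes (15026 of 20660) and for 72.4% of the named probes. Values are given as processed signal, a background-subtracted intensity, and as level, which is the log2 of that signal minus the 75th percentile of the array, so that a level of 0 is the 75th percentile. The levels of 5 genes (Dazl, Ddx4, Mael, Sycp3 and Taf7l) lay above 0 and those of 5 below, with a median of 0.02. The percentile was taken over all probes, and of the named genes 41.5% had a level above 0, or 57.1% of those detected, so 5 of 10 was near the share of all genes. Signals of different genes depend also on the probe, so no order between genes was tested. In RNA of a whole culture, a few cells with much of a transcript and many cells with little of it cannot be told apart.

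The 75th percentile of the signal was 550.5, 511.3 and 526.7 on replicates 1, 2 and 3. The lowest signal well above background was 10.1, 11.4 and 10.3, and the negative control spots, 308 on each array, had median signals of 2.42, 2.75 and 2.48. All 10 markers of embryonic stem cells were detected with levels above 0, led by Esrrb at 6.28 ± 0.10, Utf1 at 5.68 ± 0.05 and Zfp42 at 5.62 ± 0.01 (SD, n = 3). Replicate 2 carried 187 spots marked non-uniform by the scanner software, compared with 25 on replicate 1 and 8 on replicate 3, and 1 of the germline spots, that of Slc25a31, was among them.

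**Figure D2:**
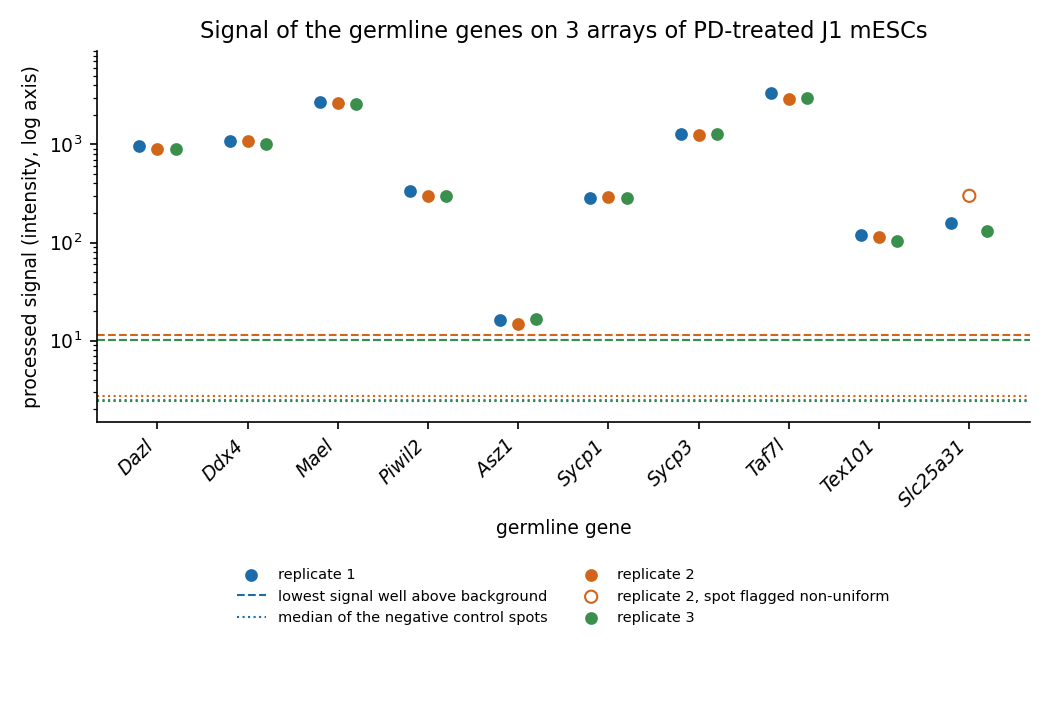
Processed signal (y axis, intensity on a log scale) of the 10 germline genes (x axis) in each replicate of PD-treated J1 mESCs, with dashed lines at the lowest signal well above background and dotted lines at the median of the negative control spots, coloured by array. All points lie above the dashed lines, Asz1 nearest to them, and the open circle is the spot of Slc25a31 on replicate 2 that was flagged non-uniform.

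Among the RNA-binding proteins, Dazl, which germ cells need for the translation of germline transcripts, had signals of 959.9, 889.6 and 908.4 on replicates 1, 2 and 3. Its level was 0.80 ± 0.01 (SD, n = 3). After scaling, the 3 arrays lay within 0.02 log2 units of each other, the closest agreement among the germline genes. Ddx4, the Vasa homologue and an RNA helicase of germ granules, had signals of 1082, 1072 and 1015, with a level of 1.00 ± 0.06 (SD, n = 3). Replicate 2 was highest and replicate 3 lowest, 0.12 log2 units apart.

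The genes of the piRNA pathway, which silences transposons in germ cells with small RNAs, covered the widest span of signal. Mael, the homologue of Maelstrom and a component of germ granules, had signals of 2712, 2613 and 2561 and a level of 2.31 ± 0.04 (SD, n = 3). On each array it was brighter than 86.6 to 86.7% of all probes. Piwil2, the Piwi protein MILI that binds piRNAs, had signals of 338, 300.7 and 300.5 and a level of -0.76 ± 0.05 (SD, n = 3). Replicate 1 was the high one for Piwil2, and the other two were alike.

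Asz1, a scaffold protein of germ granules also called GASZ, was close to the limit of detection. Its signals were 16.27, 14.95 and 16.49, with a level of -5.06 ± 0.05 (SD, n = 3), or 1.61, 1.31 and 1.61 times the lowest signal well above background on the same array. Of the 308 negative control spots, 4, 15 and 3 were at or above it, and the software's own error of the spot was 18.9 to 22.3% of the signal. The other germline genes stood at least 35.0 times above the highest negative control spot without a flag, whereas Asz1 stood 4.75 to 5.94 times above it. The narrow spread of Asz1 between arrays is thus a spread of signals near background.

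Both genes of the synaptonemal complex, the protein structure that joins homologous chromosomes in meiosis, were detected. Sycp1, which forms its transverse filaments, had signals of 287.2, 294.4 and 282.4 and a level of -0.88 ± 0.07 (SD, n = 3). Sycp3, a protein of its lateral elements, had signals of 1280, 1241 and 1264 and a level of 1.25 ± 0.03 (SD, n = 3). Replicate 2 was the highest array for both after scaling and replicate 1 the lowest, with ranges of 0.14 and 0.06 log2 units.

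Taf7l, the germ cell paralogue of the TFIID subunit Taf7, had signals of 3324, 2917 and 2963 and a level of 2.53 ± 0.05 (SD, n = 3). Replicate 1 was the high one, and on every array the signal exceeded that of 87.4 to 88.0% of all probes. Its somatic paralogue Taf7 was detected as well, with signals of 1895, 1171 and 1653 and a level of 1.54 ± 0.31 (SD, n = 3), a wider spread than that of Taf7l.

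Tex101, a glycoprotein on the surface of germ cells, had signals of 120.7, 114.8 and 104.9 and a level of -2.22 ± 0.09 (SD, n = 3). This was the largest SD among the germline genes with values from 3 arrays, with replicate 3 the lowest. On replicates 2 and 3, 1 negative control spot each was at or above its signal. The same held for Slc25a31 on replicates 2 and 3, and for Piwil2 and Sycp1 on replicate 2.

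Slc25a31, the ADP/ATP carrier of germ cells also called ANT4, was the gene whose arrays differed most, with or without a flagged spot. Its signals were 157.7, 299.5 and 131.3. Replicate 2 was 1.90 times replicate 1 and 2.28 times replicate 3, but its spot was flagged non-uniform and was left out of the level, which was -1.90 ± 0.14 (SD, n = 2) with a range of 0.20 log2 units. With that spot the level was -1.53 ± 0.66 (SD, n = 3) and the range 1.23 log2 units. The array was divided into 48 blocks, and the block that holds this spot had 46 of the 187 non-uniform spots of replicate 2, the most of any block, whereas no other germline gene lay in a block with any. The part of the marked area in the signal of this spot was not tested.

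The somatic carriers Slc25a4 and Slc25a5 had levels of 6.0 ± 0.02 and 5.98 ± 0.04 (SD, n = 3). Ddx3x, a DEAD-box relative of Ddx4, had 5.44 ± 0.05, and Ago2, the Argonaute relative of Piwil2, had 3.83 ± 0.12 (SD, n = 3). All 5 somatic relatives examined were thus detected with levels above 0. Probe sequences were not used here, so binding of a relative's RNA to a germline probe was not tested.

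**Figure D3:**
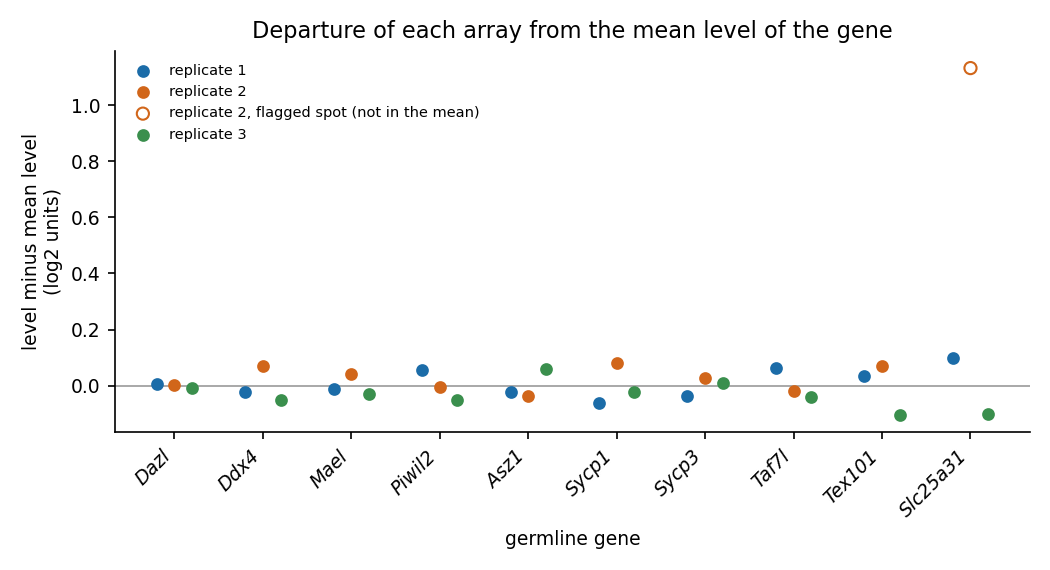
Level of each germline gene on each array minus its mean level (y axis, log2 units), by gene (x axis) and replicate (colour). Of the 9 genes with values from 3 arrays none spans more than 0.17 log2 units, while the flagged spot of Slc25a31 on replicate 2, which is not in the mean, stands more than 1 log2 unit above it.

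The SD over 3 arrays ran from 0.01 for Dazl to 0.09 for Tex101, and the median SD of the 10 genes was 0.05. No germline gene had a range above 1 log2 unit with flagged spots left out, beside 0.987% of all detected genes (148 of 14999). Of the 9 genes, replicate 1 was the highest for 3, replicate 2 for 5 and replicate 3 for 1, and replicate 3 was the lowest for 6. The coefficient of variation of the unscaled signal was 1.54 to 7.28% in these 9 genes.

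All detected genes were divided into 4 groups of equal size by mean level, because the SD falls as the level rises. The median SD was 0.14 in the dimmest group, which holds Asz1 and Tex101, and 0.08 in the next, which holds Piwil2 and Sycp1. It was 0.06 in the third group, where the other 5 genes with 3 arrays lie. Only Ddx4 had an SD above the median of its group, with 53.9% of the genes of that group below it, whereas Dazl had only 1.25% below it. An SD from 3 arrays is itself imprecise, so these positions describe the arrays at hand.

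**Figure D4:**
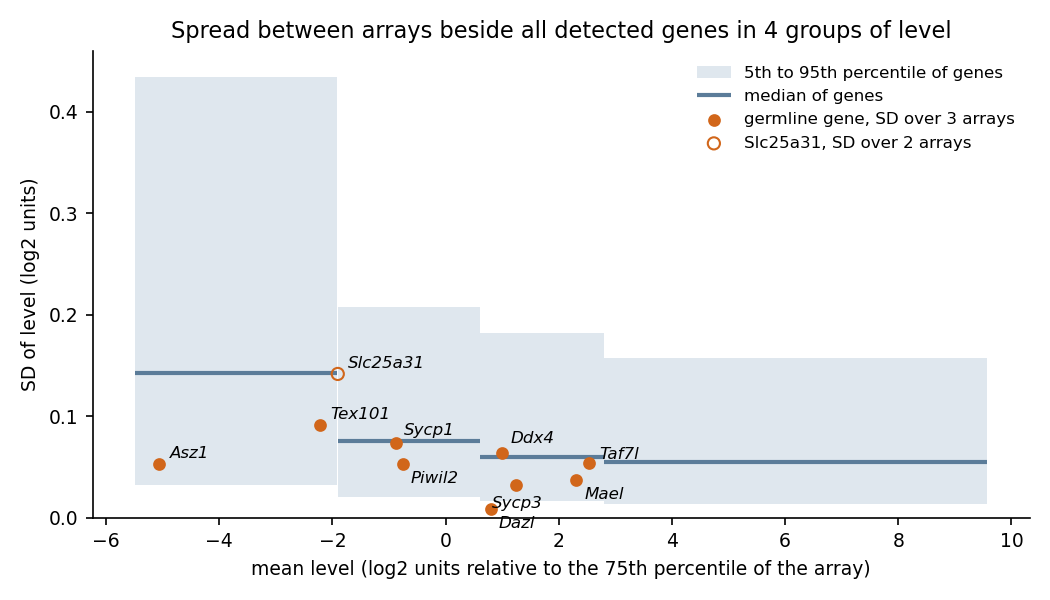
SD of the level over arrays (y axis, log2 units) against mean level (x axis, log2 units) for the 10 germline genes, on bands that give the 5th to 95th percentile and lines that give the median of all detected genes in each of the 4 groups of level. The 9 germline genes with 3 arrays lie at or below the medians, Ddx4 slightly above, and the open circle is Slc25a31 with 2 arrays.

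Other genes of meiosis were read in the same way. Of 23 on the array, 21 were detected (91.3%, beside 72.7% of all named genes), and 10 had levels above 0. Stra8, which retinoic acid induces as germ cells enter meiosis, had a level of 5.33 ± 0.17 (SD, n = 3). Syce2 and Syce1, proteins of the central element of the synaptonemal complex, had levels of 4.58 ± 0.06 and 3.36 ± 0.08 (SD, n = 3). The exceptions were Spo11, which makes the meiotic DNA breaks, with signals of 2.16, 2.46 and 2.15, and Sycp2, the partner of Sycp3. Sycp2 had signals of 7.88, 69.0 and 7.88 and was well above background on replicate 2 only, and its spot lies in the same block as that of Slc25a31.

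Of 17 other genes of the piRNA pathway on the array, 13 were detected (76.5%), a share near that of all genes, and 7 had levels above 0. Tex19.1, which restrains transposons in germ cells and pluripotent cells, had a level of 4.99 ± 0.20 (SD, n = 3), and Gtsf1 and Gpat2, both needed for piRNA function in the testis, had 3.09 ± 0.08 and 2.67 ± 0.04 (SD, n = 3). The genes not detected on all arrays were the Tudor proteins Tdrd1, Tdrd6 and Tdrd9 and the piRNA methyltransferase Henmt1. Tdrd1 had signals of 2.47, 2.83 and 3.79, Tdrd6 had 2.60, 3.61 and 6.37, and Henmt1 had 8.79, 6.29 and 3.78. Tdrd9 was well above background on 2 arrays, with signals of 17.8, 10.3 and 15.7.

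Genes of primordial germ cells were detected in 8 of 8 cases, beside 72.7% of all named genes. The highest were Ifitm3 at 4.87 ± 0.01, Tfap2c at 3.62 ± 0.06 and Kit at 3.03 ± 0.05 (SD, n = 3). Of 10 genes of gonocytes, oocytes and other germ cells of the gonad, 5 were detected (50%), a share below that of all named genes. Tex14 had a level of 2.48 ± 0.11, Sohlh2 of 1.81 ± 0.02 and Stk31 of -0.27 ± 0.08 (SD, n = 3), and the others were Sohlh1 and Boll. Not detected on all arrays were Figla, Nobox, Nanos2, Taf4b and Lhx8.

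Genes of later germ cells were read beside the 72.7% of all named genes that were detected. Of 15 spermatid genes, 10 were detected (66.7%), a share near that of all genes. None of the spermatid genes had a level above 0, and their median level was -4.49. The highest was Ldhc, a lactate dehydrogenase of the testis, at -1.43 ± 0.10, followed by Prm1 at -2.23 ± 0.30 and Acr at -2.75 ± 0.12 (SD, n = 3). Acrv1, Odf1, Smcp and Crisp2 were detected on no array and Spem1 on 2. Of 12 oocyte genes, 6 were detected (50%), a share below that of all genes. Zp3, a protein of the zona pellucida, had a level of 0.87 ± 0.17, Nlrp5 of -1.28 ± 0.03 and Gdf9 of -1.50 ± 0.09 (SD, n = 3). Padi6, Ooep and Nlrp14 were the other oocyte genes detected, and Zp1, Zp2, Bmp15, Oosp1, Mos and Zar1 were not detected on all arrays.

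Markers of other cells were examined beside these genes and beside the 72.7% of all named genes that were detected. Of 9 genes of the somatic gonad, 4 were detected, Foxl2 at 5.12 ± 0.13, Cyp17a1 at 2.33 ± 0.21, Inha at -2.71 ± 0.14 and Star at -4.33 ± 0.20 (SD, n = 3), while Amh, Sox9, Hsd3b1, Fshr and Lhcgr had signals of 2.13 to 4.52 and were detected on no array. Of 10 fibroblast genes, 5 were detected, with Thy1 at 0.24 ± 0.09, Col1a2 at -0.31 ± 0.23 and Col1a1 at -1.23 ± 0.04 (SD, n = 3), then Pdgfrb and Dcn, whereas Col3a1, Col5a2, Lum, Postn and Twist2 were not detected on all arrays. All 10 primitive endoderm genes were detected, only Col4a1 with a level above 0 (0.40 ± 0.07), followed by Cubn at -1.12 ± 0.08 and Sox7 at -1.89 ± 0.08 (SD, n = 3). Of their 13 probes, 11 were detected, and the probes of Cubn and of Foxa2 disagreed. The part of such cells in the germline signals was not tested.

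The vomeronasal receptor family Vmn1r, which serves pheromone sensing and is not known to act in mESCs, gave a reference for weak signals. Of 166 genes, 22 were detected (13.3%), 131 were detected on no array and none had a level above 0. Their median signal was 2.84, and the highest means were those of Vmn1r217 (271), Vmn1r70 (262) and Vmn1r87 (153). The mean signals of Dazl, Ddx4, Mael, Piwil2, Sycp1, Sycp3 and Taf7l were above all 166, whereas 4 Vmn1r genes were brighter than Slc25a31, 7 than Tex101 and 23 than Asz1. On replicate 1, Vmn1r70 (307.8) was also brighter than Sycp1 (287.2). Signals of the size of Sycp1, Slc25a31, Tex101 and Asz1 were therefore also given by probes of genes without a known role in these cells.

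**Figure D5:**
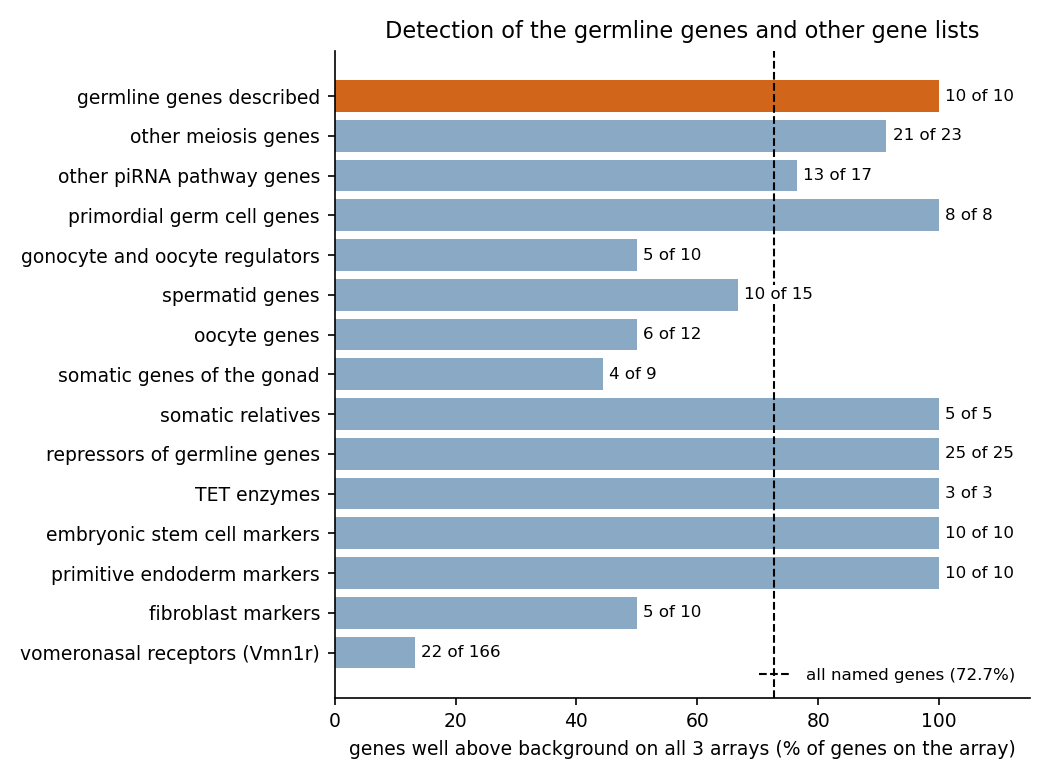
Share of genes well above background on all 3 arrays (x axis, % of the genes of each list on the array) for the 10 germline genes and for other lists (y axis), with the numbers beside the bars and a dashed line at the 72.7% of all named genes. The germline, primordial germ cell, somatic relative, repressor, TET, stem cell and primitive endoderm lists are at 100%, the oocyte, gonocyte, fibroblast and somatic gonad lists are at or below 50%, and the Vmn1r receptors are at 13.3%.

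Over all genes with a promoter in the table, the share detected rose with the number of CpG in the promoter. Of the genes whose promoter held 0 to 5 CpG, 36.3% were detected, and none of the 9 germline genes with a promoter belonged there. The shares were 76.3% at 6 to 16 CpG, where Sycp3 lies, 91.1% at 17 to 26 CpG, where Mael, Asz1, Sycp1, Taf7l, Tex101 and Slc25a31 lie, and 93.3% at 27 to 67 CpG, where Dazl and Ddx4 lie. Detection of these 9 germline genes was thus close to the share of all genes with as many CpG. Over the genes with a promoter in the table, the median was 18 CpG for the other meiosis genes (18 of 23), 22.5 for the other piRNA genes (14 of 17), 4 for the spermatid genes (13 of 15), 7 for the oocyte genes (7 of 12) and 1 for the Vmn1r genes (146 of 166). The lists did not follow this rise throughout. The medians cover only genes with a promoter, whereas the shares cover all genes of a list on the array. Differences between the lists were not tested. The other piRNA genes had a higher median than the other meiosis genes but a smaller share detected (76.5% beside 91.3%). The spermatid genes had a lower median than the oocyte genes but a larger share detected (66.7% beside 50%). The stem cell markers (median 11, 9 of 10 genes) and the primordial germ cell genes (12.5, 4 of 8) were detected throughout. Of the genes of gonocytes, oocytes and other germ cells of the gonad (16, 9 of 10), only 5 of 10 were detected.

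Factors known to repress germline genes were all detected, 25 of 25, beside 72.7% of all named genes. Of these factors, 23 had levels above 0, beside 41.5% of all named genes. Their promoters had a median of 30 CpG (22 of 25 genes), and 93.3% of all genes with 27 to 67 CpG were detected. The highest were the histone deacetylase Hdac1 at 6.90 ± 0.04, the corepressor Trim28 at 6.71 ± 0.06 and Uhrf1, which recruits the maintenance methyltransferase, at 6.12 ± 0.02 (SD, n = 3). Ring1 at -1.55 ± 0.02 and Hdac2 at -1.22 ± 0.13 lay below 0 (SD, n = 3). Of the DNA methylation machinery, Dnmt1 had a level of 2.58 ± 0.03, Dnmt3a 0.45 ± 0.01, Dnmt3b 5.91 ± 0.12 and the cofactor Dnmt3l 6.09 ± 0.11 (SD, n = 3). Of the complex that binds E-box and E2F sites, Max had 4.18 ± 0.11, Pcgf6 3.23 ± 0.02, E2f6 2.67 ± 0.08, Mga 1.34 ± 0.10 and L3mbtl2 0.88 ± 0.24 (SD, n = 3). The TET enzymes, which oxidise methylated cytosine, were detected as well, with Tet1 at 4.99 ± 0.13, Tet2 at 3.52 ± 0.03 and Tet3 at -0.52 ± 0.04 (SD, n = 3). Any relation between these factors and the germline genes was not tested.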

How the data were processed

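The intensities deposited by the authors were made, per the file headers, with Agilent Feature Extraction 10.7.3.1, which subtracted background within each array and set flags per spot. The authors also deposited a log2 table with 1 value per probe and sample, whose normalization is not stated, used here only as an alternative. Probes were named through the RefSeq gene table of GRCm38.p6 by accession without version (27235 of 55681 probes, 48.9%). The grid of the array refers to another build, mm9, so coordinates are printed for RefSeq promoters only.

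Levels were log2 processed signals minus the 75th percentile of the array over probes that are not controls. Spots with outlier flags were left out of levels. A gene was detected where its probe with the highest mean level was flagged well above background on all 3 arrays, and the spread was the SD over arrays. The methods describe the replicates as independent experiments, and their number limits the precision. With 1 group there was no contrast, no test and no p-value. The 10 genes and the 14 other gene lists were chosen with earlier results of these data known. Named are all germline genes and their somatic relatives, and of each other list the 3 highest detected genes and the smaller class, detected or not, where it has at most 8 genes. The repressors of the complex, Dnmt genes and highest Vmn1r genes were named outside this rule, after their values were seen. Of several probes of a gene, some were detected on all arrays and others not for Mei4, Tex15, Prdm9, Akap4, Cubn, Foxa2, Tet3, Vmn1r168 and Vmn1r45. Rad21l, Piwil4 and Insl3 were not matched to a probe. A planned comparison of proteins was not run, since no protein table was used here.

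Alternatives were 3 other scalings, normexp background correction with an offset of 50, the log2 table, outlier spots kept, other rules for detection and probes, and leaving out each replicate. Normexp used the median raw signal, since no column of mean raw signal was used. All samples had columns of their own. Python 3.11.15 with pandas 2.3.3, R 4.3.3 and limma 3.58.1 were used, and the scripts were tested on simulated data.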

Additional observations from a re-analysis of the deposited data

How the results depend on the processing

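All 10 germline genes remained detected under every alternative for detection, but none of these was stricter for them, as each gene had 1 probe. The flag for positive and significant signal, the highest negative control spot without a flag, fewer arrays and a left-out replicate asked for less. The count of 10 could therefore not fall, and detection under a stricter rule was not tested, also for Asz1 close to the limit. No level changed its side of 0 under any scaling, background correction, source or omission of a replicate. The median SD ranged from 0.044 to 0.058 over all alternatives, and the median level from 0.00 to 0.07. The number of germline genes with a range above 1 log2 unit was 0 and became 1, Slc25a31, with outlier spots kept and in the deposited log2 table. With the looser flag for positive and significant signal, 45 Vmn1r genes were detected in place of 22, so a call by that flag says less about weak signals. Normexp moved 8 of the 10 levels by more than 1 SD, with Asz1 going from -5.06 to -3.00 and Dazl from 0.80 to 0.57. It changed both the offset and the input signal, and the cause was not tested. Without replicate 1 or 3, Slc25a31 kept 1 value and the median SD rested on 9 genes. No paired analysis was possible because the 3 replicates share 1 treatment and there is no second group to pair them with.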
